A study of Homo sapiens with 10 samples.

Results

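The genes described here are 44 genes of G2/M and mitosis: the cyclins and CDK1 that start mitosis, the mitotic kinases, the spindle checkpoint, the anaphase-promoting pathway, the kinetochore, the chromosomal passenger complex, the spindle, cytokinesis, and a pair concerned with chromosome topology and mitotic transcription. They were listed by name, and each was read from the probe set with the highest mean log2(signal + 16) over all arrays. Of 19775 genes on the array, 12022 lay above the expression filter and were tested, and 43 of the 44 listed genes were among them. INCENP, the scaffold of the chromosomal passenger complex, lay below the filter with signals of 6.78 to 77.3 and was not tested.

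The study used SKBR3, an established human breast carcinoma line that carries mutant p53, grown in charcoal stripped serum. Cells received an siRNA against p53 (p53i) or a control siRNA against LacZ (LacZi), and then 100 nM of 1a25(OH)2D3 (D3, calcitriol, the hormone form of vitamin D) or nothing. Each siRNA had 2 untreated arrays, given as biological replicates, and 1 D3 array at each of 8, 20 and 50 h, so that there were 10 arrays in all. No untreated array was matched to a D3 time, so that time in culture and time with D3 cannot be told apart, and all cells were of 1 line and all had been transfected. The siRNA's own target was not analysed here.

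As background, entry into mitosis is driven by CDK1 bound to cyclin B, which PLK1 and the Aurora kinases help to activate and whose action ends when the anaphase-promoting complex (APC/C) with CDC20 marks cyclin B and securin for destruction. The checkpoint holds back CDC20 until every kinetochore is bound by spindle microtubules. Most of these genes are transcribed in G2 and M under shared control by FOXM1, B-MYB, NF-Y and the MuvB complexes, and their RNA is most abundant in cells in those phases.

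Signals were the linear values of the deposited MAS5 table, whose array medians ran from 35.7 to 44.3, and differences are on the log2(signal + 16) scale, which understates changes of weak probe sets. ERBB2, the amplified receptor gene of SKBR3, read 12690 to 19099. The 7 SKBR3 and luminal breast markers summed to 67101 to 85852 on untreated and 68255 to 99715 on D3 arrays, with 6 above the filter. CDH1, which SKBR3 is known to lack, read 2.80 to 23.9. The 6 immune markers on the array (2 above the filter) summed to 89.1 to 263 untreated and 185 to 282 with D3, and the 8 fibroblast and endothelial markers (2 above the filter) to 489 to 627 and 456 to 729. The ratio of 3' to 5' signal of ACTB, a sign of RNA integrity, was 3.79 to 8.72 on untreated and 4.60 to 7.11 on D3 arrays, and was highest on the p53i untreated replicate 2 and next highest on the p53i 20 h array.

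The untreated duplicates stood apart from each other over the mitotic genes. In LacZi cells 39 of 43 genes were lower on replicate 2 than on replicate 1, with a median difference of -0.22, and in p53i cells 38 of 43 were, with a median of -0.33. Over all genes tested the shares lower on replicate 2 were 51.0% and 47.6%. The median deviation from each gene's mean over the arrays was 0.40 and 0.20 on the untreated LacZi arrays and 0.37 and -0.0086 on the untreated p53i arrays. In the same order of 8, 20 and 50 h it was 0.13, -0.13 and -0.29 on the LacZi arrays and -0.0037, -0.21 and -0.50 on the p53i arrays. The p53i untreated replicate 2 therefore lay level with the p53i 8 h array. Values at 8 h below are mostly given without this spread beside them.

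**Figure D1:**
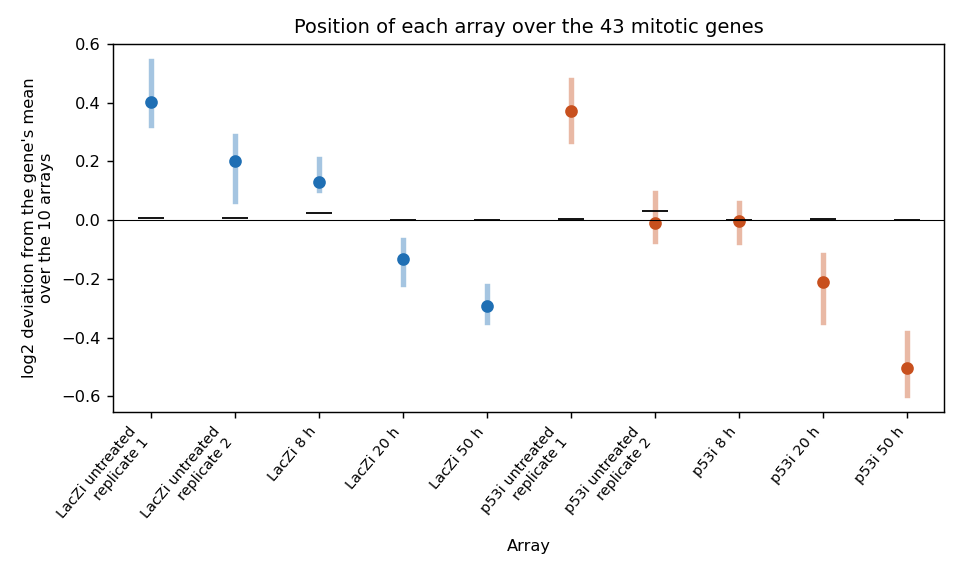
Position of each array over the 43 mitotic genes. Each array has 1 point, the median over the 43 genes of the log2 deviation from the gene's own mean over the 10 arrays. Bars run from the lower to the upper quartile of the 43 genes, and dashes mark the median of all genes tested. The medians of the mitotic genes ran from 0.40 on the LacZi untreated replicate 1 to -0.50 on the p53i 50 h array.

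After D3 the mitotic genes were lower on later arrays in both cell populations. At 50 h 33 of the 43 genes tested were lower than untreated at a limma adjusted p under 0.05 and none was higher, where 2.48% of all 12022 genes were lower and 1.83% higher by the same test. Below, a gene is said to fall at 50 h only where it passed this test, although all 43 values were negative. The median over the 43 genes was -0.64, and the 43 values ran from -1.16 for DLGAP5 to -0.29 for KIF23 (-0.93 by its other probe set), where the median of all genes tested was -0.0087. At 20 h the median was -0.43 and 1 gene, CKS1B, passed the test (-0.67, adjusted p = 0.0318), where 0.233% of all genes were lower. At 8 h the median was -0.16 and 40 of 43 values were negative, but limma called 0 genes (0.0333% of all genes were called lower). At an unadjusted p under 0.05 the 8 h test held 6 of the 43 genes against 7.50% of all genes, and the 20 h test 32 against 13.7%. These tests share the same 4 untreated arrays. In whole-culture RNA, fewer cells in mitosis and less RNA per mitotic cell cannot be told apart.

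Of the 43 genes, 36 had both 50 h arrays below all 4 untreated arrays, against 12.1% of all genes, 30 had both 20 h arrays there, against 10.2%, and 6 had both 8 h arrays there, against 6.35%. The last 6, CKS2, PLK1, CDC20, AURKB, BIRC5 and DLGAP5, were also the 6 genes with every D3 array below every untreated array, against 2.47% of all genes. The genes that overlapped at 50 h were CDK1, CDC25B, CENPA, CENPE, TPX2, HMMR and KIF23. In 29 of 43 genes the LacZi values stepped down from the untreated mean through 8, 20 and 50 h without exception (7.79% of all genes), in 32 the p53i values did (9.44%), and in 23 both did (2.30%). For every D3 array the size depended on which untreated duplicate it was set against. At 8 h 40 genes were lower than LacZi replicate 1 (48.1% of all genes) but 24 were lower than replicate 2 (47.4%). The medians were -0.25 and -0.035. In p53i cells 43 (51.1% of all genes) and 25 (54.7%) were lower, with medians of -0.36 and -0.059. The numbers against replicate 2 thus lay much nearer the share of all genes than those against replicate 1. At 50 h 43 genes were lower than replicate 1 and 42 lower than replicate 2 in either population. The medians were -0.68 and -0.47 in LacZi and -0.90 and -0.55 in p53i cells. Of all genes 50.6% and 50.9% were lower in LacZi and 50.9% and 54.4% in p53i cells.

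The number of genes passing at 50 h rested on single arrays. It was 13 without the LacZi untreated replicate 1, 3 without the LacZi 50 h array and 0 without the p53i 50 h array, 39 without the p53i untreated replicate 2, and between 22 and 34 without each of the others, while all 33 genes kept a negative value in every such fit. With the ACTB ratio as a covariate 36 genes were lower. The single gene called at 20 h was lost without the LacZi untreated replicate 1 or any 1 of the 6 D3 arrays, and the number called there was 2 without the LacZi untreated replicate 2 and 13 without the p53i untreated replicate 2. Averaged over the 3 times, 21 of 43 genes were lower (2.41% of all genes), with a median of -0.39 and values from -0.71 for DLGAP5 to -0.18. That number was 3 without the LacZi untreated replicate 1, 5 without the LacZi 20 h array, 6 without the p53i 20 h or the p53i 50 h array, 7 without the p53i 8 h array, 8 without the p53i untreated replicate 1, 9 without the LacZi 8 h array, 13 without the LacZi 50 h array, 20 without the LacZi untreated replicate 2 and 33 without the p53i untreated replicate 2.

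**Figure D2:**
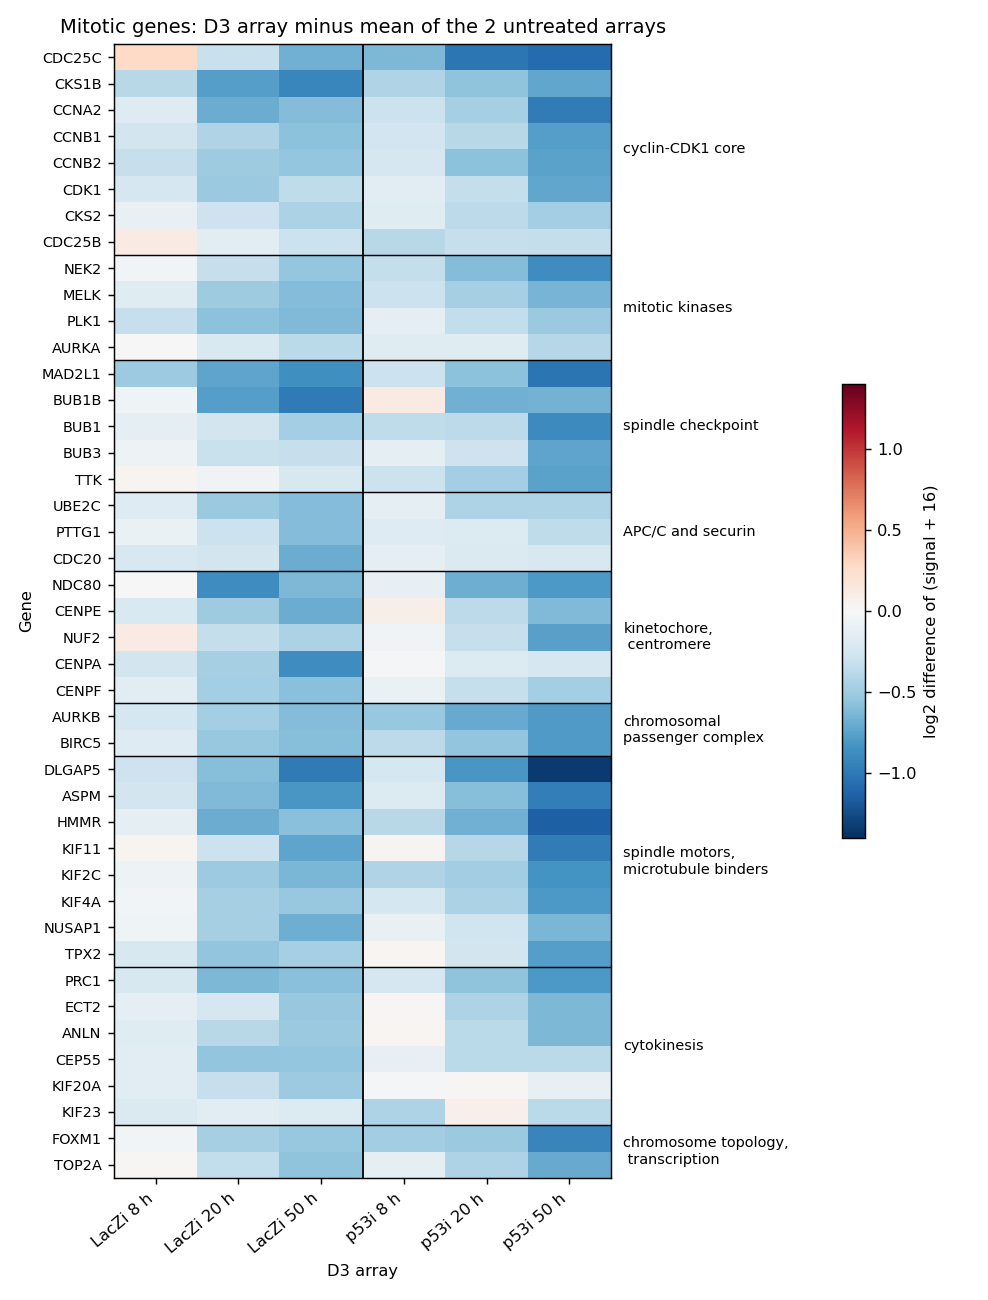
Differences of each D3 array from the mean of the 2 untreated arrays of the same siRNA, as log2 of (signal + 16), for the 43 mitotic genes ordered by function and then by their 50 h value. Columns are the 8, 20 and 50 h arrays of LacZi and then p53i cells; the medians over genes were -0.15, -0.47 and -0.58 for the LacZi columns and -0.18, -0.43 and -0.74 for the p53i columns.

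Because the members moved together, their promoters were set out for the letters of a pair of known elements. The CCAAT box is the site of NF-Y, and the cell cycle genes homology region (CHR), TTTGAA or TTCGAA, is the site of the MuvB complexes. RefSeq promoters on GRCh38.p14, from 250 bases before to 50 after the start, were held for 37 of the 44 genes in 47 windows. The 110 bases before the start are shown for 7 genes with a CCAAT box and a CHR in that stretch near the start (CCNB2, CKS1B, CKS2, PLK1, KIF11, HMMR and PRC1), for DLGAP5, which had the lowest 50 h value, and for KIF2C and MELK, whose windows held neither. Capitals mark CCAAT or its reverse complement ATTGG and TTTGAA or its reverse complement TTCAAA, each sequence ends at the base before the start and reads 5′ to 3′ on the gene's strand, and overlapping or adjoining matches run together in HMMR.
CCNB2: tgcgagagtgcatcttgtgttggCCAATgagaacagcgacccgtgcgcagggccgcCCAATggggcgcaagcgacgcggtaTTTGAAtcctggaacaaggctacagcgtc
CKS1B: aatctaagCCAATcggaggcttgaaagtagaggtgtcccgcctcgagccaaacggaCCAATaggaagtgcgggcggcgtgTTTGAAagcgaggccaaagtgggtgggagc
CKS2: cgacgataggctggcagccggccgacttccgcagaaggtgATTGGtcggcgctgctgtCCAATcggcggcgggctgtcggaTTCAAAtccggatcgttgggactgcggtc
PLK1: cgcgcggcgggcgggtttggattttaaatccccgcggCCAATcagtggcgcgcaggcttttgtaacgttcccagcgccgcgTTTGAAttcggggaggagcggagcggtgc
KIF11: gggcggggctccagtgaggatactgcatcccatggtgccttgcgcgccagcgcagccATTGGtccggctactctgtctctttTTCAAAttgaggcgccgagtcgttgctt
HMMR: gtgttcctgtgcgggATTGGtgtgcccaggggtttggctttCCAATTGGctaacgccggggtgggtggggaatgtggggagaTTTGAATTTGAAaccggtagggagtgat
PRC1: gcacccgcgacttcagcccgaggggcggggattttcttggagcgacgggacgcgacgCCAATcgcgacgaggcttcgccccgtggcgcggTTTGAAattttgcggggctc
DLGAP5: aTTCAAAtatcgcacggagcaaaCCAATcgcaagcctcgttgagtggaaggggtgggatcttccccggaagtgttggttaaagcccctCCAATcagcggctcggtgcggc
KIF2C: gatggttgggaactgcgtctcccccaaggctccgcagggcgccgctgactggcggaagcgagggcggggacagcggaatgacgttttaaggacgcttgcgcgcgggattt
MELK: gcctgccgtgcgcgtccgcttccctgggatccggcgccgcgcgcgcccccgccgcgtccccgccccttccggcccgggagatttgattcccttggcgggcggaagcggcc
On the plus strand these lay at chr15:59105036-59105145 for CCNB2, chr1:154974571-154974680 for CKS1B, chr9:89311085-89311194 for CKS2, chr16:23678779-23678888 for PLK1, chr10:92593020-92593129 for KIF11, chr5:163460522-163460631 for HMMR, chr1:44739727-44739836 for KIF2C and chr9:36572785-36572894 for MELK. On the minus strand they lay at chr15:90994536-90994645 for PRC1 and chr14:55191586-55191695 for DLGAP5.

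In the first 7 of these, chosen for a CHR near the start, it began between 20 and 30 bases before the start. The DLGAP5 window held 3 CHR matches, at positions -138, -109 and 4 with the start as base 1, of which the second lies in the stretch shown. Searched on both strands, CCAAT was in 35 of the 47 windows (74.5%), against 34.6% of the 35116 windows of all genes, which include noncoding genes. TTTGAA or TTCGAA was in 31 windows (66%), against 16.4%. Both were in 26 windows (55.3%), against 6.38%, and neither was in 7 (14.9%), against 55.4%. By gene, 17 of 23 tested genes with both elements fell at 50 h, with a median of -0.64. The same held for 5 of 6 genes with CCAAT alone (median -0.69), 3 of 4 with the CHR alone (-0.66) and 2 of 3 with neither (-0.66), the last being KIF2C and MELK, which fell, and CENPE, at -0.66 ± 0.19 (SE, adjusted p = 0.0765). A match is a run of letters and not a measured binding site.

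In the cyclin and CDK1 core, 6 of the 8 genes fell at 50 h by the probe sets used, with a group median of -0.66. CCNB1 encodes cyclin B1, the partner of CDK1 at mitotic entry. Its signals were 2233 and 2021 untreated and then 1776, 1578 and 1423 at 8, 20 and 50 h in the LacZi arm, and 2122 and 1641 untreated and then 1545, 1425 and 1085 in the p53i arm. The 20 and 50 h arrays all lay below the untreated ones, the LacZi 8 h array did not, and the 50 h difference was -0.67 ± 0.12 (SE, adjusted p = 0.00976). CCNB2, the second B-type cyclin, read 1509.5 and 1562 untreated and then 1225, 1083 and 1051 at 8, 20 and 50 h in the LacZi arm, and 1424 and 1129 untreated and then 1079, 848 and 749 in the p53i arm. Its values at 20 and 50 h were likewise below all untreated values, and it fell by 0.64 at 50 h. CDK1, the kinase itself, read 4811 and 3858 untreated and then 3665, 3012 and 3358 at 8, 20 and 50 h in the LacZi arm, and 3466 and 3271 untreated and then 3009, 2672 and 2022 in the p53i arm. On this probe set each later p53i array was lower, while in LacZi cells the 20 h array was the lowest and the 50 h array overlapped the untreated p53i arrays. At 50 h CDK1 fell by 0.54 ± 0.12 (SE, adjusted p = 0.0309) on it. Other CDK1 probe sets above the filter stood at -0.42 and -0.48 at 50 h (limma adjusted p = 0.379 and 0.152 among probe sets). The former stood at 0.21, -0.22 and -0.19 at 8, 20 and 50 h in the p53i arm. CCNA2, cyclin A2, which acts in S phase and G2, fell by 0.80 ± 0.14 (SE, adjusted p = 0.0112), and it ranged over all arrays from 475 to 1199.

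CKS1B and CKS2 are small subunits that bind CDK1 and help it to phosphorylate its targets. CKS1B read 2733 and 2396 untreated and then 1948, 1498 and 1356 at 8, 20 and 50 h in the LacZi arm, and 2155 and 1678 untreated and then 1413, 1278 and 1141 in the p53i arm. Apart from the LacZi 8 h array, all D3 arrays lay below all untreated ones. CKS1B was the gene called at 20 h, and at 50 h it fell by 0.82 ± 0.12 (SE, adjusted p = 0.00403). CKS2 read 4532 and 4372 untreated and then 4146, 3649.9 and 3274 at 8, 20 and 50 h in the LacZi arm, and 4972 and 4146 untreated and then 4049, 3508 and 3258 in the p53i arm. No D3 array overlapped an untreated one, although the LacZi 8 h array, at 4145.57, was only just below the p53i untreated replicate 2, at 4146.45. The fall of CKS2 at 50 h was the smallest called in this group, at -0.46 ± 0.09 (SE, adjusted p = 0.0191). The CDC25 phosphatases remove the inhibitory phosphates from CDK1. CDC25C read 281 and 260.4 untreated and then 333, 214 and 164 at 8, 20 and 50 h in the LacZi arm, and 372 and 209.5 untreated and then 176, 131 and 124 in the p53i arm. The LacZi 8 h array was the highest LacZi array and the p53i untreated replicates lay far apart, and the 50 h difference of -0.88 ± 0.24 (SE, adjusted p = 0.0653) did not pass the test. CDC25B read 2012 and 2276 untreated and then 2316, 1921 and 1741 at 8, 20 and 50 h in the LacZi arm, and 2424 and 2873 untreated and then 2019, 2104 and 2095 in the p53i arm. Its D3 arrays overlapped the untreated ones at every time, with a 50 h difference of -0.31 ± 0.12 (SE, adjusted p = 0.185).

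**Figure D3:**
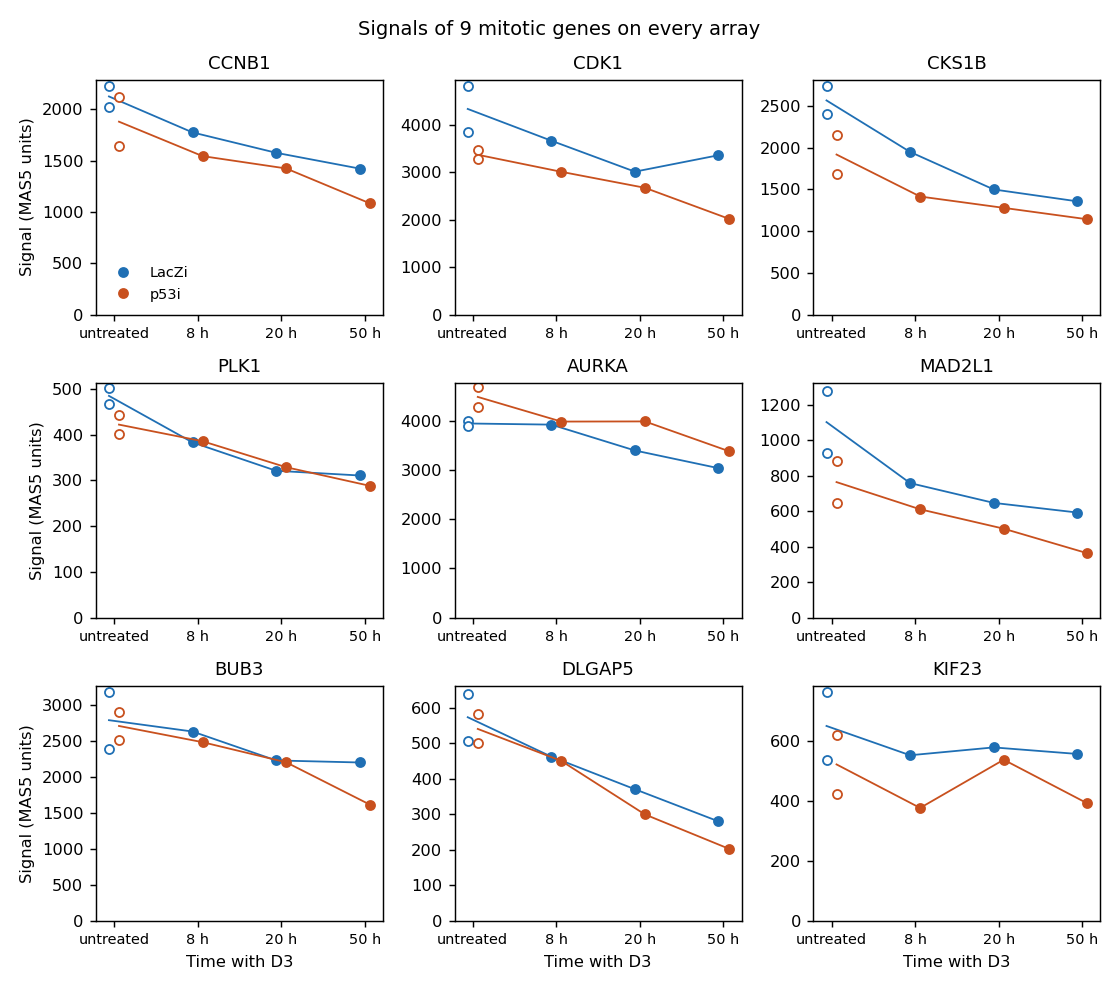
MAS5 signals of 9 mitotic genes on every array, from untreated through 8, 20 and 50 h with D3 on an evenly spaced category axis. Open points are the 2 untreated arrays of each siRNA, filled points are single D3 arrays, and lines run from the untreated mean; DLGAP5 stepped from 639 and 506 to 280 in LacZi cells, whereas the KIF23 probe set used had no such order.

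By the probe sets used, all 4 mitotic kinases fell at 50 h, with a median of -0.60. PLK1, which drives mitotic entry, spindle assembly and cytokinesis, read 503 and 467 untreated and then 383, 321 and 311 at 8, 20 and 50 h in the LacZi arm, and 443 and 401 untreated and then 386, 329 and 288 in the p53i arm. Its 6 D3 arrays lay below all 4 untreated arrays and stepped down with time in both populations, with a 50 h difference of -0.57 ± 0.13 (SE, adjusted p = 0.0302). AURKA, the centrosome and spindle pole kinase, read 4010.5 and 3896 untreated and then 3929.5, 3403 and 3043 at 8, 20 and 50 h in the LacZi arm, and 4290.02 and 4698 untreated and then 3992, 3995 and 3392 in the p53i arm. Both 50 h arrays and the LacZi 20 h array lay below every untreated array, and its 50 h difference of -0.39 ± 0.09 (SE, adjusted p = 0.0303) was the smallest of the kinases. Other AURKA probe sets above the filter stood at -0.20 and -0.085 at 50 h (limma adjusted p = 0.305 and 0.896 among probe sets). The fall of AURKA thus depended on the probe set. NEK2, which helps to separate the centrosomes, read 1077 and 900.2 untreated and then 957, 784 and 669 at 8, 20 and 50 h in the LacZi arm, and 1336 and 925 untreated and then 877, 726 and 602 in the p53i arm. Its 20 and 50 h arrays were below all untreated arrays and NEK2 had the lowest 50 h difference of these kinases, -0.71 ± 0.15 (SE, adjusted p = 0.025). MELK, a kinase whose promoter held neither element, fell by 0.63 ± 0.13 (SE, adjusted p = 0.0202) over a range of 1225 to 2273.

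Of the 5 spindle checkpoint genes 4 fell at 50 h, with a median of -0.69. MAD2L1 encodes MAD2, which binds and holds CDC20. It read 1279 and 927 untreated and then 759, 647 and 593 at 8, 20 and 50 h in the LacZi arm, and 883 and 645 untreated and then 611, 502 and 363 in the p53i arm. Every step in both populations was downward, the LacZi 8 and 20 h arrays overlapped the untreated ones and the 50 h arrays did not, and its 50 h difference was -0.94 ± 0.16 (SE, adjusted p = 0.00908). BUB1, the kinase that recruits the checkpoint to the kinetochore, read 547 and 423 untreated and then 438, 399 and 342 at 8, 20 and 50 h in the LacZi arm, and 616 and 429.8 untreated and then 399, 396 and 269 in the p53i arm. The 20 and 50 h arrays were below the untreated ones and BUB1 fell by 0.69 ± 0.17 (SE, adjusted p = 0.0447). BUB3, which carries BUB1 and BUBR1 to the kinetochore, read 3191 and 2394 untreated and then 2635, 2232 and 2204 at 8, 20 and 50 h in the LacZi arm, and 2906 and 2518 untreated and then 2487, 2206 and 1618 in the p53i arm. Its 20 and 50 h arrays likewise lay below the untreated ones, and it fell by 0.53 ± 0.13 (SE, adjusted p = 0.0452). BUB1B, which encodes BUBR1, had a value of 0.03 at 8 h, and then -0.72 at 20 h and -0.83 ± 0.18 (SE, adjusted p = 0.0235) at 50 h. TTK, the kinase MPS1 that starts checkpoint signalling, read 968 and 839 untreated and then 929, 874 and 769 at 8, 20 and 50 h in the LacZi arm, and 1037 and 1026 untreated and then 836, 737 and 605 in the p53i arm. Both 50 h arrays lay below the untreated ones, but its difference of -0.49 ± 0.14 (SE, adjusted p = 0.0653) did not pass.

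The 3 genes of the APC/C pathway all fell at 50 h, with a median of -0.48, the smallest group median. CDC20, the activator that the checkpoint restrains, read 1492 and 1513 untreated and then 1284, 1250.1 and 922 at 8, 20 and 50 h in the LacZi arm, and 1367 and 1451 untreated and then 1284, 1225 and 1199 in the p53i arm. No D3 array reached the lowest untreated array, and the LacZi 50 h array was the lowest of all. At 50 h CDC20 fell by 0.46 ± 0.12 (SE, adjusted p = 0.0452). UBE2C, the ubiquitin-conjugating enzyme of the APC/C, read 3257 and 3065 untreated and then 2783, 2201 and 2065 at 8, 20 and 50 h in the LacZi arm, and 3463 and 2501 untreated and then 2692, 2179 and 2173 in the p53i arm. Its 20 and 50 h arrays lay below all untreated arrays, and the p53i 20 and 50 h arrays were almost equal. UBE2C fell by 0.52 ± 0.12 (SE, adjusted p = 0.0332). PTTG1, securin, which holds back separase until anaphase, fell by 0.48 ± 0.11 (SE, adjusted p = 0.0375) over a range of 2845 to 4805.

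At the kinetochore and centromere 2 of 5 genes passed the test at 50 h, CENPF and NUF2, with a group median of -0.60. CENPF, a large kinetochore protein that is at its most abundant in G2 and M, read 2014 and 1861 untreated and then 1733, 1383 and 1289 at 8, 20 and 50 h in the LacZi arm, and 1985 and 1573 untreated and then 1650.4, 1415 and 1264 in the p53i arm. Its 20 and 50 h arrays lay below all untreated arrays, with a 50 h difference of -0.53 ± 0.11 (SE, adjusted p = 0.0216). NDC80, the outer kinetochore subunit that binds microtubules, read 567 and 378 untreated and then 461, 246 and 293 at 8, 20 and 50 h in the LacZi arm, and 559.7 and 385 untreated and then 429, 283 and 259 in the p53i arm. The LacZi 20 h array was lower than the LacZi 50 h array, and its 20 h difference of -0.78 was the largest of all 43 genes at that time without passing the test. At 50 h NDC80 was at -0.72 ± 0.19 (SE, adjusted p = 0.051), beside its partner NUF2, which fell by 0.60 ± 0.15 (SE, adjusted p = 0.0442). CENPA, the histone H3 variant of centromeres, was at -0.55 ± 0.28 (SE, adjusted p = 0.293), and its p53i untreated replicates of 382 and 151 spanned the p53i D3 arrays. CENPE, the kinetochore motor, also had its lowest untreated value on the p53i replicate 2, at 346.

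Both measured members of the chromosomal passenger complex, which corrects microtubule attachments and directs cytokinesis, fell at 50 h by the probe sets used. On those probe sets neither overlapped its untreated arrays at any time. AURKB, the kinase of the complex, read 382 and 279 untreated and then 272, 231 and 209 at 8, 20 and 50 h in the LacZi arm, and 331 and 283 untreated and then 207, 182 and 171 in the p53i arm. The D3 arrays stepped down with time in both populations, those of p53i cells lower than the LacZi array of the same time, and the 50 h difference was -0.70 ± 0.17 (SE, adjusted p = 0.0382). The other AURKB probe set above the filter stood at -0.33, -0.69 and -0.61 at 8, 20 and 50 h in the LacZi arm. In the p53i arm it stood at 0.02, 0.02 and 0.07. Its 50 h difference by limma was -0.27 ± 0.21 (SE, adjusted p = 0.557 among probe sets). BIRC5, survivin, which takes the complex to centromeres, read 1165 and 995 untreated and then 947, 739 and 707 at 8, 20 and 50 h in the LacZi arm, and 1274 and 1092 untreated and then 910.3, 799 and 675 in the p53i arm. It stepped down with time in both populations to -0.69 ± 0.12 (SE, adjusted p = 0.00908). At 8 h the group median of -0.33 was the lowest of the 9 groups and at 20 h, at -0.57, it was again the lowest, but no gene of the group passed the test at either time.

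All 8 spindle motors and microtubule binders fell at 50 h, with a group median of -0.80, the lowest of the groups. DLGAP5, also called HURP, stabilises the kinetochore fibres of the spindle. It read 639 and 506 untreated and then 462, 370.1 and 279.6 at 8, 20 and 50 h in the LacZi arm, and 581 and 499 untreated and then 449.8, 299 and 203 in the p53i arm. The D3 arrays lay below all untreated arrays at every time, each lower than the one before, and the 50 h difference was -1.16 ± 0.15 (SE, adjusted p = 0.00144). Its 95% interval, -1.48 to -0.84, lay wholly below the intervals of 15 other members by the probe sets used, among them CDK1, AURKA, BUB3, CDC20 and KIF23. DLGAP5 was picked as the lowest member in these same data and the intervals are unadjusted. Differences between genes were not tested. TPX2, which activates AURKA on the spindle, read 1123 and 1077 untreated and then 939, 745 and 790.4 at 8, 20 and 50 h in the LacZi arm, and 1053 and 775 untreated and then 919, 754 and 524 in the p53i arm. The LacZi 50 h array lay above the p53i untreated replicate 2, and TPX2 fell by 0.62 ± 0.15 (SE, adjusted p = 0.0423). The others were ASPM, a spindle pole protein, at -0.89 ± 0.14 (SE, adjusted p = 0.00721), KIF11, the motor that pushes the poles apart, at -0.86 ± 0.17 (SE, adjusted p = 0.0154), and HMMR, a spindle assembly factor, at -0.86 ± 0.21 (SE, adjusted p = 0.0446). KIF2C, a microtubule depolymerase, was at -0.74 ± 0.12 (SE, adjusted p = 0.00694), KIF4A, a chromosome-bound motor, at -0.67 ± 0.12 (SE, adjusted p = 0.0101), and NUSAP1, which bundles microtubules, at -0.66 ± 0.13 (SE, adjusted p = 0.0162). KIF11 had stood at 0.04 at 8 h.

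Of the 6 cytokinesis genes 3 fell at 50 h, with a group median of -0.52. PRC1, which bundles the midzone microtubules, read 1951 and 1566 untreated and then 1497, 1123 and 1163 at 8, 20 and 50 h in the LacZi arm, and 2021 and 1421 untreated and then 1442, 1141 and 966 in the p53i arm. Its 20 and 50 h arrays lay below all untreated arrays, and the LacZi 20 h array was slightly below the LacZi 50 h array. PRC1 fell by 0.69 ± 0.14 (SE, adjusted p = 0.0207). ANLN, anillin of the contractile ring, fell by 0.58 ± 0.11 (SE, adjusted p = 0.0133), and ECT2, the exchange factor that activates RhoA there, was at -0.58 ± 0.12 (SE, adjusted p = 0.018) and also passed. KIF23, the motor subunit of centralspindlin, read 763 and 535 untreated and then 551, 577 and 556 at 8, 20 and 50 h in the LacZi arm, and 619 and 422 untreated and then 376, 536 and 391 in the p53i arm. Its D3 arrays overlapped the untreated arrays at every time and its difference was -0.29 ± 0.18 (SE, adjusted p = 0.415). The other probe set of KIF23 above the filter was at -0.93 ± 0.24 (SE, adjusted p = 0.0676 among probe sets) at 50 h, so that the size for KIF23 depended on the probe set. CEP55, which acts in abscission, was at -0.46 ± 0.14 (SE, adjusted p = 0.0765), and KIF20A, a midzone motor, at -0.31 ± 0.13 (SE, adjusted p = 0.193). In none of the 6 did both populations step down at every time.

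FOXM1 and TOP2A form the last group, with a median of -0.68. FOXM1, a transcription factor of G2/M genes that is itself a member, read 822 and 623 untreated and then 697, 514 and 491 at 8, 20 and 50 h in the LacZi arm, and 857 and 902 untreated and then 622, 608 and 457 in the p53i arm. The 20 and 50 h arrays lay below all untreated arrays, the p53i 8 h array was just below the lowest of them, and the 50 h difference was -0.73 ± 0.15 (SE, adjusted p = 0.0193). TOP2A, the topoisomerase that untangles chromosomes, read 6595 and 4738 untreated and then 5638, 4385 and 3772 at 8, 20 and 50 h in the LacZi arm, and 6635 and 3806 untreated and then 4597, 3709 and 3066 in the p53i arm. In either population replicate 2 lay far below replicate 1 and below the 8 h array, and its 50 h difference of -0.64 ± 0.18 (SE, adjusted p = 0.0723) did not pass the test.

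**Figure D4:**
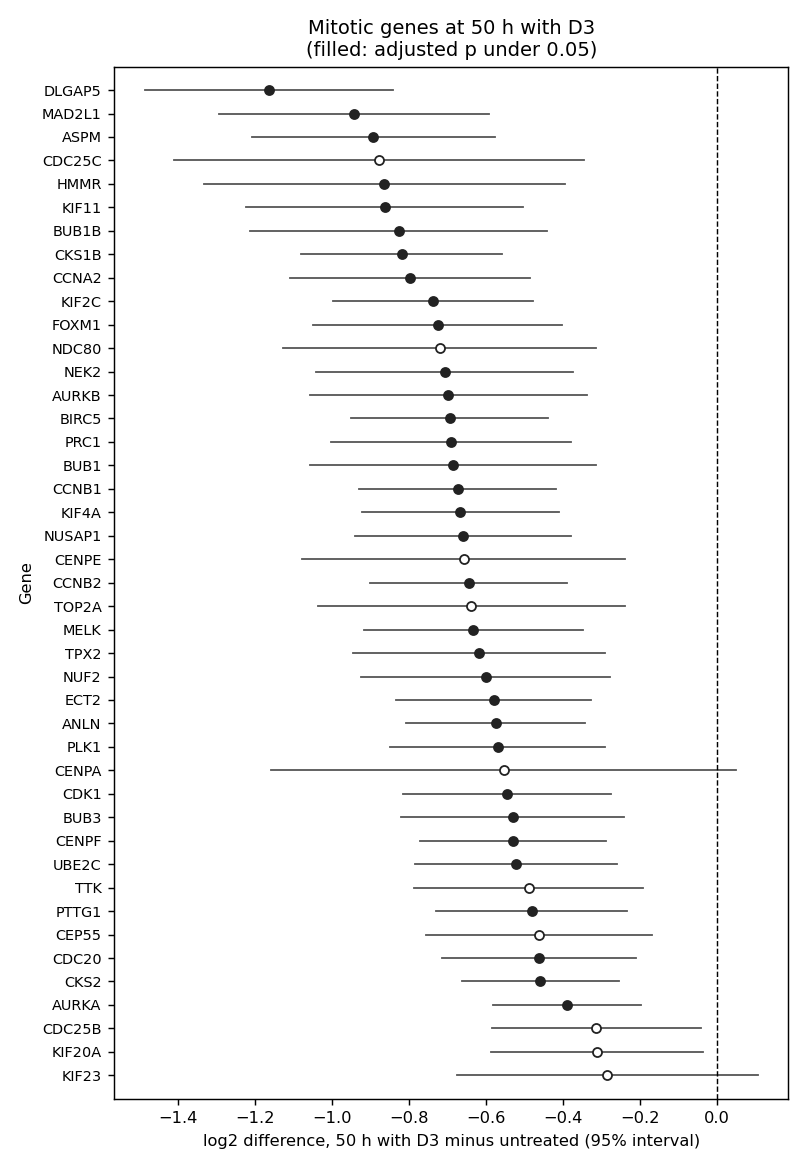
The 50 h difference of each of the 43 mitotic genes from untreated, as log2 of (signal + 16) with its 95% interval from limma, sorted by value. Filled points are the 33 genes with an adjusted p under 0.05; DLGAP5 was lowest at -1.16 and KIF23 highest at -0.29, where its other probe set was at -0.93.

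Set out by function, the order depended on the time. At 8 h the group medians ran from -0.33 for the passenger complex, -0.22 for the cyclin core and -0.21 for the kinases to -0.07 for the kinetochore genes. The untreated duplicates differed by similar amounts. Replicate 2 minus replicate 1 was -0.33 in LacZi and -0.22 in p53i cells for the passenger complex. It was -0.12 and -0.31 for the cyclin core, -0.18 and -0.25 for the kinases and -0.12 and -0.52 for the kinetochore. At 20 h they ran from -0.57 for the passenger complex and -0.48 for both the cyclin core and the spindle genes to -0.25 for the APC/C pathway. At 50 h the spindle genes were lowest at -0.80, and the other groups lay between -0.70 and -0.48. The single genes with the lowest 8 h values were CKS1B and MAD2L1, both at -0.41, and AURKB at -0.39, then KIF23 at -0.32, and BUB1B, NUF2 and KIF11 were the 3 above 0. Among the 33 genes called at 50 h, the median share of the 50 h difference present at 8 h was 29.7%, with a range of -5.17% to 56.2%, and at 20 h it was 68.3%, with a range of 40.7% to 90.9%. By group the 8 h share was 47.9% for the passenger complex, 37.6% for the cyclin core, 31.8% for the kinases, 29.7% for the APC/C pathway, 26.6% for the checkpoint, 22.5% for the spindle, 12.6% for cytokinesis and 9.52% for the kinetochore. These shares describe genes chosen by their 50 h test, in groups of 2 to 8 genes, and differences between groups were not tested. They rest on the mean of the untreated duplicates, and their size depended on the duplicate. Over the 43 genes, the LacZi medians at 8 and 50 h were -0.25 and -0.68 against replicate 1. Against replicate 2 they were -0.035 and -0.47. The p53i medians were -0.36 and -0.90 against replicate 1, and -0.059 and -0.55 against replicate 2.

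No member passed the test for a step from one D3 time to another. From 8 to 50 h the median over the 43 genes was -0.44 and 42 values were negative, where the median of all genes tested was -0.014. The limma test of that step called 0 of the 43 (0.0250% of all genes were called lower), and the lowest adjusted p was 0.0868, for DLGAP5 at -0.89. At an unadjusted p under 0.05 it held 36 of the 43, against 9.62% of all genes, and without the p53i untreated replicate 2 it called 1. From 8 to 20 h the median was -0.27, and limma called 0 members and 0 of all genes, with 8 of the 43 at an unadjusted p under 0.05, against 3.45% of all genes. From 20 to 50 h the median was -0.21, and limma called 0 members (0.00832% of all genes), with 2 of the 43 at an unadjusted p under 0.05, against 4.22% of all genes.

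Within each siRNA the D3 difference over the 3 times had a median over the 43 genes of -0.41 for LacZi and -0.43 for p53i. With 2 untreated and 3 D3 arrays each, limma called 0 of 43 in LacZi cells (0.0499% of all genes were called lower) and 0 of 43 in p53i cells (0.150%). At an unadjusted p under 0.05 there were 30 and 33 members, against 11.9% and 15.1% of all genes, and the lowest adjusted p was 0.0537 and 0.0545. The LacZi number was 4 without the p53i untreated replicate 1 and 5 without the p53i untreated replicate 2, since the arms share 1 estimate of the spread, and the p53i number was 15 without the latter. Group medians at 50 h, each from 1 D3 array, were lower in p53i than in LacZi cells for the cyclin core (-0.74 and -0.56), the checkpoint (-0.75 and -0.48), the passenger complex (-0.79 and -0.60), the spindle (-0.90 and -0.66) and FOXM1 with TOP2A (-0.82 and -0.55). They were close for the kinases (-0.59 and -0.58), the kinetochore (-0.62 and -0.63) and cytokinesis (-0.51 and -0.52), and the APC/C pathway was lower in LacZi cells (-0.35 in p53i and -0.61 in LacZi). CDC20, at 922 in LacZi and 1199 in p53i cells at 50 h, was among the genes of that group.

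**Figure D5:**
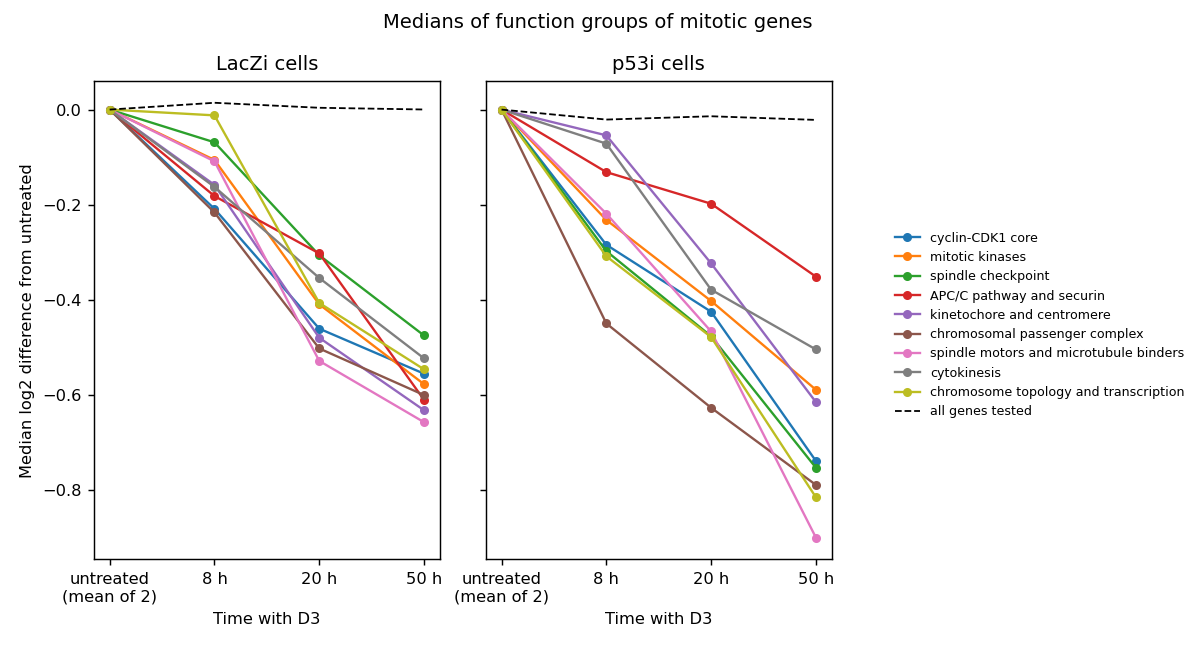
Median log2 difference from the untreated mean for each of the 9 function groups at 8, 20 and 50 h with D3, in LacZi and p53i cells, on an evenly spaced category axis, with the median of all genes tested dashed. At 50 h the spindle genes were at -0.66 in LacZi and -0.90 in p53i cells, and the APC/C pathway at -0.61 and -0.35.

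The difference between the siRNAs was tested itself. The interaction, the D3 difference in p53i cells minus that in LacZi cells, had a median of -0.05 over the 43 genes and ran from -0.67 for CDC25C to 0.37 for CENPA. Limma called 0 members and 0 of all 12022 genes. At an unadjusted p under 0.05 there was 1 member, TTK at -0.43 (adjusted p = 0.893), against 5.37% of all genes. The half-widths of the 95% intervals ran from 0.297 to 0.919 with a median of 0.444, so that smaller differences between the siRNAs were not detectable. At 50 h alone, a comparison chosen after the data were seen, p53i minus LacZi had a median of -0.17, with 31 of 43 values negative and values from -0.57 for HMMR to 0.63 for CENPA. Limma called 0 members and none had an unadjusted p under 0.05, with half-widths of 0.511 to 1.45 and a median of 0.723.

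The fitted difference of p53i from LacZi cells over all conditions was negative for 37 of 43 genes. Its median was -0.12, where the median of all genes tested was -0.0049. Of the 43 genes 5 passed the limma test, where 3.11% of all genes were called lower. These were KIF11 at -0.49 ± 0.12 (SE), MAD2L1 at -0.48 ± 0.12, ASPM at -0.39 ± 0.11, CDK1 at -0.38 ± 0.09 and CKS1B at -0.36 ± 0.09, with adjusted p from 0.0317 to 0.0479. The same test held 12 of the 43 genes at an unadjusted p under 0.05 in either direction, against 22.9% of all genes, a share not far below theirs. For 16 of 43 genes the p53i value was below the LacZi value untreated and at all 3 times, against 16.6% of all genes. The ACTB ratio was 3.79 to 5.05 in LacZi and 4.39 to 8.72 in p53i cells, and with it as a covariate 0 genes passed. The number was 10 without the p53i untreated replicate 1, 3 without the LacZi untreated replicate 2, 2 without the p53i untreated replicate 2, and 0 without the LacZi untreated replicate 1 or any 1 of the 6 D3 arrays.

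Other probe sets of the members differed in part from those used. There were 32 above the filter for 21 of the genes, and at 50 h 26 of them were lower, 4 passed the test among all probe sets and none was higher by it. Their median was -0.33, with a range of -0.99 to 0.33. The shares of all 22031 probe sets lower or called lower are not given, so these counts have no background beside them. For TOP2A, CENPF and BIRC5 another probe set at -0.68, -0.94 and -0.88 passed. For ASPM, ECT2 and BUB3 another probe set stood at 0.14, 0.21 and 0.33. A further probe set of BUB1, CENPF and CDC25C stood at 0.03, 0.07 and 0.09. Those of MAD2L1 were at -0.35 and -0.34, against -0.94 for the probe set used.

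Wider lists of the same machinery, outside the 44 genes, were read against the 2.48% of all genes called lower at 50 h. At that time 4 of 20 condensin and cohesin genes fell, with a list median of -0.32, among them the condensin subunits SMC2 (-0.78 ± 0.15, SE) and NCAPG (-0.68 ± 0.14) and the cohesin protector CDCA5 (-0.66 ± 0.12). Of 26 other kinetochore and centromere genes 6 fell (median -0.38), among them OIP5 at -0.85 ± 0.18 and HJURP at -0.54 ± 0.12, both of the machinery that loads CENPA, and CENPM at -0.60 ± 0.15. CENPM was lowest at 8 h, where it read 217 in LacZi and 196 in p53i cells. It read 348 and 303 at 20 h and 268 and 286 at 50 h. Of 27 other spindle and cytokinesis genes 6 fell (median -0.49), among them SHCBP1 at -0.96 ± 0.15, the kinase PBK at -0.73 ± 0.16 and DEPDC1 at -0.72 ± 0.17. Of 28 regulators of mitotic transcription and of CDK1 1 fell, MYBL2, the B-MYB gene, at -0.80 ± 0.18, with a list median of -0.17, a share close to that of all genes. Of 15 APC/C subunits and partners limma called 0, with 3 of the 15 at an unadjusted p under 0.05, against 19.9% of all genes, and a median of -0.19, whereas its activator CDC20 and its enzyme UBE2C fell. No gene of these lists was higher by the test.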

How the data were processed

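Total RNA of the 10 SKBR3 cultures, 6 ug each, was hybridised to 1-colour Affymetrix arrays. The deposited table holds linear signal intensity values for 54675 probe sets, made by the authors with MAS5, per the submitters' processing notes (no version given). D3 was added 48 h after transfection per the series text and 24 h per the sample text. The number of arrays limits the precision. Of the probe sets, 41097 have 1 gene symbol, 1801 several and 11777 none, and the last 2 kinds were not used.

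Values were taken as log2(signal + 16). The upper 50% of probe sets by mean (signal above 35.4) were kept, with 1 probe set per gene, giving 12022 genes. Models with siRNA and D3 time were fitted across all genes with limma 3.58.1 in R 4.3.3 (lmFit, eBayes with trend), Benjamini-Hochberg adjusted at 0.05, with 5 residual degrees of freedom, 4 for the interaction and 2 for the group means. Scripts were tested on simulated data. Alternatives changed the scaling, offset, filter, probe set, trend, model, covariate and arrays. No scan batch was given in the files. Where the labels call untreated arrays biological replicates, separate cultures are not described, so p-values measure a spread between arrays. In the fits with siRNA and D3 time that spread includes how far the LacZi and p53i arrays of the same D3 time disagree. Only the group means use the untreated duplicates alone.

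The members and gene lists were chosen with earlier results of these data known. Named genes were 14 fixed ones plus the lowest and highest at 50 h in each function group; others are given briefly with their 50 h values.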

Additional observations from a re-analysis of the deposited data

How the results depend on the processing

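The sign of the median over the 43 genes was negative in every alternative for D3 at 8 h (-0.21 to -0.10), 20 h (-0.55 to -0.35), 50 h (-0.75 to -0.52), over the 3 times (-0.48 to -0.32) and for p53i against LacZi (-0.17 to -0.01), while that of the interaction ran from -0.24 to 0.14. Numbers of genes called moved more. At 50 h, where 33 were called, there were 20 with the mean of a gene's probe sets, 16 with the second probe set, 2 without the variance trend and 1 with group means. Over the 3 times (21) there were 13 with the second probe set, 2 without the trend and 0 with group means. At 20 h (1) there were 0 without the trend, with group means and without the 2 arrays of highest ACTB ratio. For D3 in LacZi cells (0) there was 1 with an offset of 64, with the second probe set and without those 2 arrays. For D3 in p53i cells (0) there were 14 with median centring, 11 with the ACTB ratio as a covariate and 1 without those 2 arrays. For p53i against LacZi (5) there were 3 with the mean of probe sets, 2 with the second probe set, and 0 with median centring, without a filter, without the trend, with group means, with the ACTB covariate and without those 2 arrays. With the second probe set ASPM stood at 0.33 over the 3 times and 0.14 at 50 h, and ECT2 at 0.21 at 50 h. Leaving out each array in turn gave 3 to 33 genes over the 3 times, 0 to 13 at 20 h, 0 to 39 at 50 h, 0 to 1 from 8 to 50 h, 0 to 5 in LacZi, 0 to 15 in p53i, 0 to 10 for p53i against LacZi, and 0 for the other tests. The causes of these shifts were not tested.

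The replicate numbers are shared by only 2 untreated pairs, whose deviations correlated at 0.22 across genes, so that they were not taken as pairs. With the number of the untreated arrays as a block, and the D3 arrays, which carry no number, set midway between, 34 genes were called over the 3 times, 18 at 20 h, 39 at 50 h, 6 from 8 to 50 h, 9 in LacZi, 21 in p53i and 8 for p53i against LacZi. Shares of all genes called are not set beside these numbers or those of the other alternatives, so none can be read against a background.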
